A study of Mus musculus with 7 samples.

Results

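Cholesterol and fatty acid synthesis genes were followed in MN9D cells, a mouse hybrid line of embryonic midbrain neurons and neuroblastoma that makes dopamine. The genes were chosen from a written list of 34 enzymes and regulators, of which 32 had a probe set with a single gene symbol, out of 12393 genes with such a probe set on the array. These were 17 of 18 sterol synthesis genes, 1 sterol transfer gene, 4 of 5 regulators of the SREBP transcription factors and 10 of 10 fatty acid synthesis genes. Acat2 and Insig1 were not analysed here. Where a gene had several probe sets, the one brightest on average across the 7 arrays stood for it. The study hybridised RNA of 4 samples labelled as overexpressing the alpha and beta chains of mouse hemoglobin and of 3 samples carrying an empty vector, all of the same line, to mouse 430A 2.0 arrays. One more control array, set aside by the submitters for its quality, was not analysed here. The design text asks how cells of this line respond to globin. The labels do not say whether a group was 1 clone or a pool, which promoter drove the globins, or that replicates were separate cultures. The p-values therefore rest on the spread among arrays, and this spread may be technical.

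Sterols are built from acetyl-CoA through mevalonate and squalene, and then by a series of reactions that turn lanosterol into cholesterol. Fatty acids come from the same acetyl-CoA pool and are afterwards elongated and desaturated. Both branches are under the SREBP factors, which are held in the endoplasmic reticulum by Scap and Insig proteins while sterol is plentiful and are cut and released to the nucleus when it falls. Neurons and neuron-like lines use these products for membranes, and brain cells make their own cholesterol because plasma lipoproteins do not cross into the brain.

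Values are deposited RMA expression values on the log2 scale, and differences are log2 differences, globin-labelled minus empty vector. A value after ± is limma's standard error, from 4 and 3 arrays, or an SD where so named. Adjusted p-values are limma's with Benjamini-Hochberg adjustment over 22626 probe sets, and a gene was called higher or lower at an adjusted p under 0.05. RMA makes the arrays' distributions alike and compresses folds, so a change shared by most transcripts would not be seen. Array medians lay between 8.90 and 8.94, and 0 of the 32 genes had a group mean below the arrays' lowest 10th percentile of 5.36. The 3 probe sets shared by both adult alpha-globin genes differed by 5.16 to 7.15, whereas 1 of 3 adult beta-globin probe sets was called, with 0.34. The alpha part of the label was therefore seen in the signal and the beta part was hardly seen, and the arrays are called globin-labelled wherever a direction is given. Of the line's 5 dopaminergic markers 0 rose, 2 fell and 3 did not pass (limma; 0 were higher at an unadjusted p under 0.05). Th stood at 11.78 in the empty vector arrays and fell by 0.70 ± 0.05, and Ddc fell by 0.22 ± 0.05. Nr4a2, Pitx3 and the dopamine transporter gene Slc6a3 did not pass, and Slc6a3 stood at 6.33, below the lower quartile of the arrays. Of 29 measured markers of astrocytes, oligodendrocytes, microglia, fibroblasts and erythroid cells, 1 rose (Slc4a1) and 2 fell (Mbp and Cd68). These were 3.45% and 6.9%, where 20.6% of all genes were called higher and 20.1% lower. Of the 29 markers, 16 had a mean below the lower quartile of the arrays and 7 below the 10th percentile, so changes could be missed. Slc4a1 rose by 0.29 ± 0.08, Mbp fell by 0.70 ± 0.06 and Cd68 fell by 1.25 ± 0.09. The mean level of the 29 markers per array ranged from 6.66 to 6.70 in the empty vector group and from 6.60 to 6.69 in the globin-labelled group. The part of these markers in the results below was not tested. In bulk RNA, fewer cells of a type and less RNA per cell cannot be told apart.

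Most lipid synthesis genes rose with the globin label. Of the 32 genes, 20 were called higher, 4 lower and 8 did not pass. Over all 12393 genes 20.6% were called higher and 20.1% lower, and 40.7% were called in either direction. The median difference of the 32 genes was 0.22, against 0.02 over all genes. The changes were small, between 1.10-fold and 1.81-fold among the called genes. Only Tm7sf2, Elovl6 and Acly reached 1.5-fold, all of them upward, where 2.89% of all genes were called at that size upward and 2.39% downward. The groups did not overlap for 26 of the 32 genes, as for 45.7% of all genes.

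**Figure D1:**
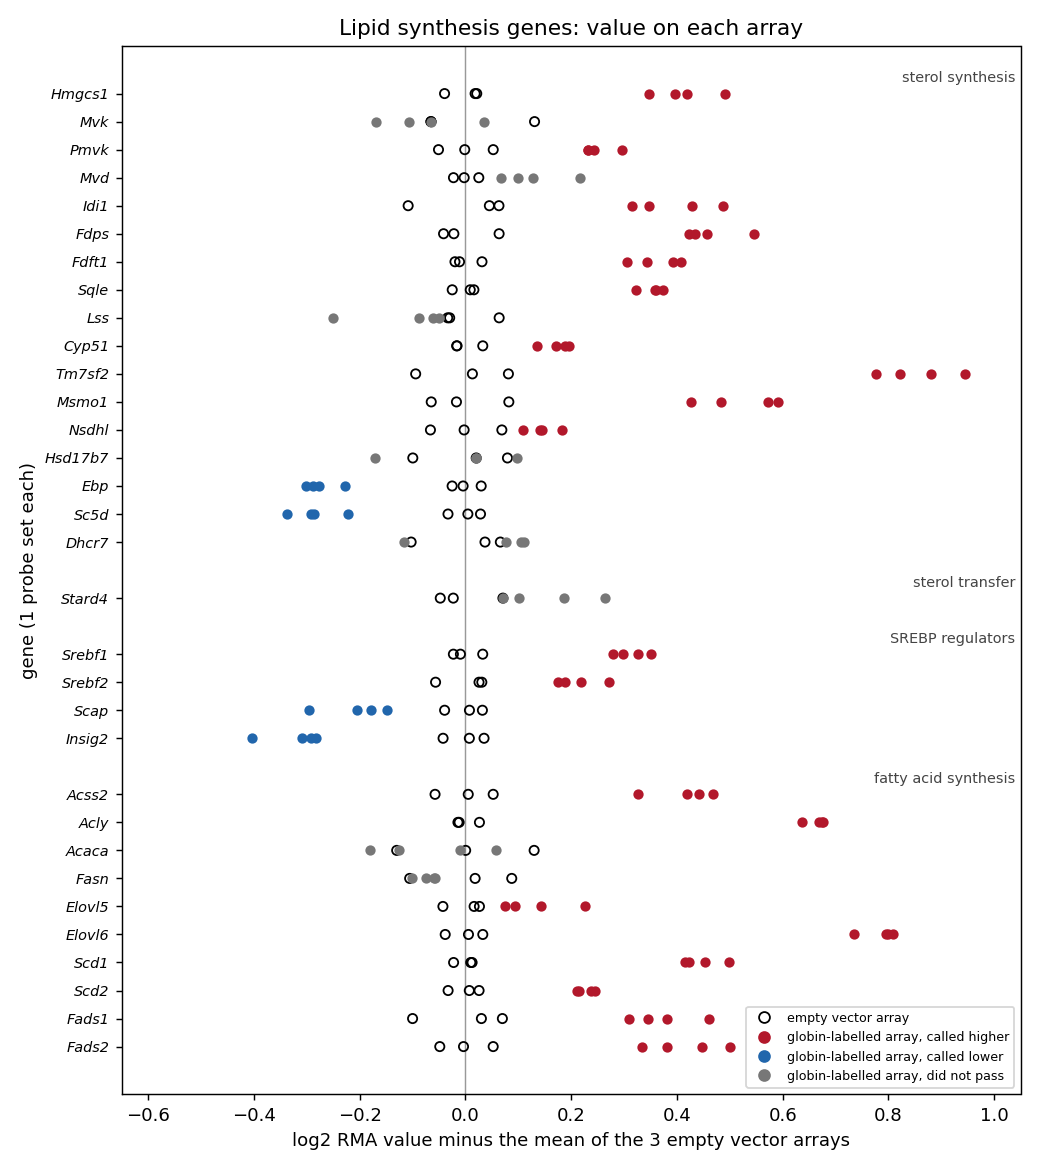
Value of each gene on each array (horizontal axis, log2 RMA value minus the mean of the 3 empty vector arrays), with genes in pathway order on the vertical axis. Open circles are empty vector arrays and filled circles are globin-labelled arrays, coloured by the call. The 4 filled circles lie to the right of all open ones for 21 genes, farthest for Tm7sf2, and to their left for 5 genes.

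The promoters of the listed genes, whatever their call, were looked at for letters they share. RefSeq promoter sequences of GRCm38.p6, which run from 250 bases before to 50 after a start site, were found for 25 of the 32 measured genes and for both unmeasured ones, 35 promoters in all. The sterol element TCACNCCAC, a form of the SREBP binding sequence, was searched on both strands, as were the NF-Y box CCAAT and the Sp1 box GGGCGG, which bind common partners of SREBP. None of the 3 motifs contains another. The sterol element was in 1 of the 35 promoters (2.86%), that of Hmgcs1, and in 1.24% of 32851 promoters of the same length. The NF-Y box was in 23 of 35 (65.7%, against 37.4% of all promoters) and the Sp1 box in 26 of 35 (74.3%, against 35.7%). In the sterol synthesis genes 14 of 18 promoters held the NF-Y box and 15 of 18 the Sp1 box. In the fatty acid synthesis genes 4 of 7 and 3 of 7 did. By call, the NF-Y box was in 13 of 17 promoters of genes called higher, in 3 of 7 of genes called lower and in 6 of 9 of genes that did not pass. The Sp1 box was in 12 of 17, 6 of 7 and 6 of 9. Some genes have several promoters in these counts, so shares of promoters are not shares of genes. The 7 promoters of genes called lower belong to 4 genes, with 3 of Insig2 and 2 of Scap. Only promoter 1 of Insig2 held the NF-Y box, and neither of Scap did. Those of genes called higher include 3 of Srebf1 and 2 of Pmvk. A match is a description and not a binding site, many promoters hold these short boxes, and other forms of the sterol element were not searched.

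The 200 bases before the start site are shown for Hmgcs1, whose promoter held all 3 motifs, and for the 3 genes that rose by at least 1.5-fold, to show how differently these promoters are built. Capitals mark every match of the 3 motifs on either strand, so that the NF-Y box can read ATTGG and the Sp1 box CCGCCC. The stretches lie at chr13:119690151-119690350 (plus strand) for Hmgcs1, chr19:6067851-6068050 (minus strand) for Tm7sf2, chr11:100528001-100528200 (minus strand) for Acly and chr3:129532186-129532385 (plus strand) for Elovl6, all in GRCm38.p6.
Hmgcs1: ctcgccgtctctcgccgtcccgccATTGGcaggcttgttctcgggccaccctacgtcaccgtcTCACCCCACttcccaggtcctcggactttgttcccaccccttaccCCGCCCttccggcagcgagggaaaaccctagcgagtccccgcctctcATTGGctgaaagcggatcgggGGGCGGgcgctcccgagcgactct
Tm7sf2: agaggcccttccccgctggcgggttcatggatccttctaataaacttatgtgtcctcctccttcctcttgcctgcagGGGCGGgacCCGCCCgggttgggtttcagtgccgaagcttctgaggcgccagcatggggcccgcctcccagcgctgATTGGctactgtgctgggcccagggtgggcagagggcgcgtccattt
Acly: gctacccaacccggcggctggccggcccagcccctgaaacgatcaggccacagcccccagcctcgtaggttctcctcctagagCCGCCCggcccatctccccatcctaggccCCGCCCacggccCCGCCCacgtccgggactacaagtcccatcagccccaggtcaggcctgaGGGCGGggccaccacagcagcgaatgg
Elovl6: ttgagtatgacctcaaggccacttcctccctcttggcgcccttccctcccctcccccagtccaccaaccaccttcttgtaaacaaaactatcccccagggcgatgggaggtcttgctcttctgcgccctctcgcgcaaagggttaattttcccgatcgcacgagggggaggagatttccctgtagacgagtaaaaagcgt
The Hmgcs1 stretch held 1 sterol element between 2 NF-Y boxes, with 2 Sp1 boxes. The Tm7sf2 stretch held 1 NF-Y box and 2 Sp1 boxes, the Acly stretch 4 Sp1 boxes, and the Elovl6 stretch 0 matches of the 3 motifs. Outside the stretches shown, the promoters of Hmgcs1 and Acly held further matches, for Acly 1 NF-Y box after the start site. The part of these motifs in the rises was not tested.

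In the sterol branch, 10 of 17 measured genes rose (58.8%, where 20.6% of all genes were called higher), 2 fell and 5 did not pass, with a median difference of 0.17. Of the 8 measured genes up to squalene epoxidation 6 rose and 0 fell, and at an unadjusted p under 0.05 in limma 0 were lower. Hmgcs1, which makes the HMG-CoA that feeds the mevalonate pathway, rose from 11.57 ± 0.03 (SD, n = 3) to 11.98 ± 0.06 (SD, n = 4), or by 0.41 ± 0.05 (limma adjusted p = 9.98e-05). Its other 3 probe sets rose by 0.43 ± 0.05, 0.44 ± 0.04 and 0.55 ± 0.05. Idi1, the isopentenyl diphosphate isomerase, rose by 0.39 ± 0.06, and Fdps, which joins isoprene units into farnesyl diphosphate, rose by 0.46 ± 0.05. Fdft1, the squalene synthase at the branch towards sterols, rose by 0.36 ± 0.04, and Sqle, the squalene epoxidase, rose by 0.35 ± 0.04. Pmvk, which adds the next phosphate to phosphomevalonate, rose less, by 0.25 ± 0.04.

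The remaining mevalonate enzymes did not pass. Mvk, the mevalonate kinase, differed by -0.08 ± 0.07 (95% confidence interval -0.22 to 0.07). Mvd, the mevalonate diphosphate decarboxylase, differed by 0.13 ± 0.05 (95% confidence interval 0.03 to 0.23, limma adjusted p = 0.0502). All 4 globin-labelled arrays of Mvd lay above the 3 empty vector arrays, and it passed under 6 of the 16 alternatives to the analysis.

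After lanosterol the genes diverged. Tm7sf2, a sterol reductase, had the largest rise of the 32. Its values were 7.81, 7.88 and 7.70 on the empty vector arrays and 8.68, 8.62, 8.74 and 8.57 on the globin-labelled arrays. The groups lay well apart, and the difference was 0.86 ± 0.06, or 1.81-fold (limma adjusted p = 5.31e-06). Msmo1, the sterol methyl oxidase, rose by 0.52 ± 0.06, and Cyp51, the lanosterol demethylase, rose by 0.17 ± 0.04. The next probe set of Cyp51 by mean rose by 0.18 ± 0.06, and its dimmest gave -0.13 ± 0.06 without a call. Nsdhl, the sterol dehydrogenase that acts with Msmo1, rose by 0.14 ± 0.04 (limma adjusted p = 0.0281), a call that was lost without empty vector array 2 or 3 or without globin-labelled array 2, 3 or 4 (adjusted p = 0.0539 to 0.102).

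The late enzymes Ebp and Sc5d went the other way. Ebp, the sterol isomerase, read 10.26, 10.24 and 10.29 on the empty vector arrays and 9.98, 9.96, 9.99 and 10.04 on the globin-labelled arrays. It fell by 0.27 ± 0.04 (limma adjusted p = 4.49e-04). Sc5d, the sterol desaturase that follows it, read 10.74, 10.71 and 10.67 against 10.41, 10.49, 10.37 and 10.42. It fell by 0.28 ± 0.04 (limma adjusted p = 5.75e-04), while its dimmer probe set gave -0.04 ± 0.04 without a call. In both genes the groups did not overlap. Dhcr7, the reductase of the last step, differed by 0.04 ± 0.07 (95% confidence interval -0.11 to 0.20), and Hsd17b7, a ketosteroid reductase of the same series, by -0.01 ± 0.07 (95% confidence interval -0.16 to 0.15). The other probe set of Hsd17b7 gave 0.17 ± 0.07 and did not pass either (limma adjusted p = 0.105).

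Lss, which closes squalene epoxide into lanosterol, gave different answers on different probe sets. Its brightest probe set gave -0.11 ± 0.06 without a call, although its globin-labelled arrays lay below its empty vector arrays. The next probe set rose by 0.34 ± 0.05 (limma adjusted p = 3.61e-04), close to the rises of Sqle and Fdft1, and the dimmest differed by 0.02 ± 0.06. Which of them reports the enzyme's transcript was not tested. Stard4, a carrier of sterol between membranes, differed by 0.16 ± 0.06 on one probe set and -0.07 ± 0.05 on the other, and neither passed (limma adjusted p = 0.0542 and 0.317).

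**Figure D2:**
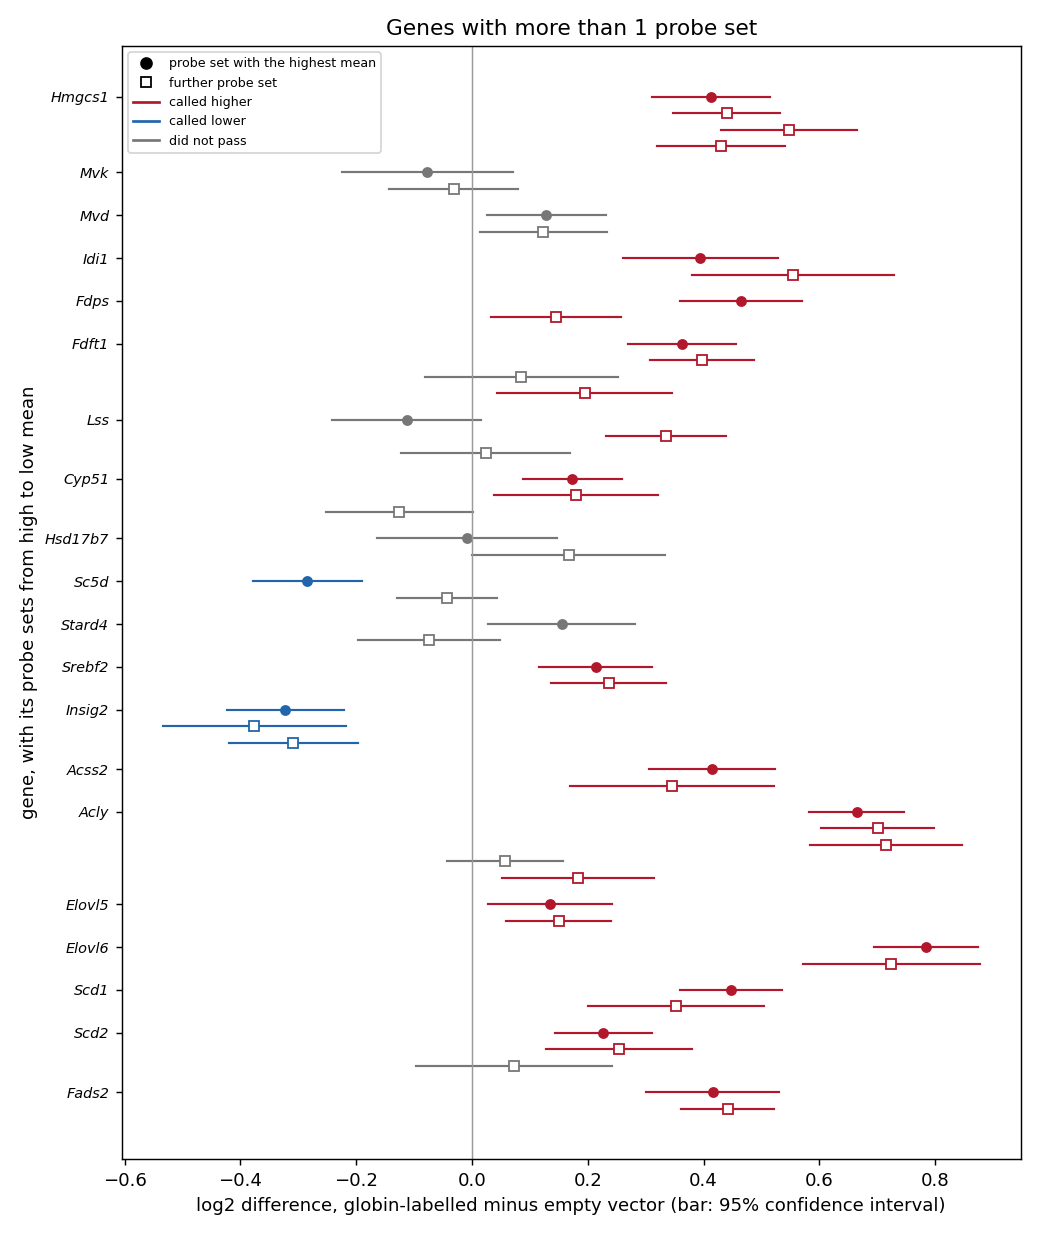
Log2 difference with its 95% confidence interval (horizontal axis) for every probe set of the 20 genes that had more than 1, from high to low mean within a gene (vertical axis). Filled circles are the probe sets used for the gene, open squares the others, coloured by the call. Insig2 falls on all 3 of its probe sets and Hmgcs1 rises on all 4, whereas those of Lss, Cyp51, Hsd17b7 and Stard4 lie on both sides of 0.

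Over the 20 genes with more than 1 probe set, and where 39.5% of all probe sets were called, 20 of the 31 further probe sets were called in the gene's direction, 0 against it, 5 did not pass although the gene was called, 1 passed although the gene was not called (Lss), and 5 passed in neither. Probe sets of 1 gene share its transcript and are not independent. The probe sets that did not pass were 1 each of Fdft1, Cyp51, Sc5d, Acly and Scd2. For Acly that probe set stood at 3.90 in the empty vector arrays, below the arrays' 10th percentile. With all probe sets of a gene averaged, Cyp51 no longer passed (0.08, limma adjusted p = 0.171).

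The SREBP regulators divided, with 2 of 4 higher and 2 lower (background 20.6% and 20.1%). Srebf1, whose products mainly drive fatty acid genes, read 11.35, 11.40 and 11.36 on the empty vector arrays and 11.69, 11.72, 11.67 and 11.65 on the globin-labelled arrays. It rose by 0.31 ± 0.04 (limma adjusted p = 2.01e-04), and the groups were clearly separate. The probe set does not tell its promoters apart. Srebf2, whose product mainly drives sterol genes, read 10.86, 10.94 and 10.94 against 11.13, 11.09, 11.10 and 11.18. It rose by 0.21 ± 0.04 (limma adjusted p = 0.00349), with 0.24 ± 0.04 on its other probe set.

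Transcripts for the measured proteins that hold or carry SREBP, Insig2 and Scap, were lower. Insig2, a retention protein of the endoplasmic reticulum, read 10.65, 10.60 and 10.68 on the empty vector arrays and 10.24, 10.33, 10.35 and 10.36 on the globin-labelled arrays. It fell by 0.32 ± 0.04 (limma adjusted p = 3.99e-04), and its other 2 probe sets gave -0.31 ± 0.05 and -0.38 ± 0.07, both called. Scap, the escort that takes SREBP to the Golgi, fell by 0.21 ± 0.05 (limma adjusted p = 0.00602). The transcripts were measured here, and not the cleavage of SREBP.

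In the fatty acid branch, 8 of 10 genes rose (80%, where 20.6% of all genes were called higher), 0 fell and 2 did not pass, with a median difference of 0.39. At an unadjusted p under 0.05 in limma 0 were lower as well. Transcripts of the listed enzymes that make acetyl-CoA, Acly and Acss2, were higher, and acetyl-CoA itself was not measured. Acly, which makes cytosolic acetyl-CoA from citrate for both branches, read 12.21, 12.21 and 12.25 on the empty vector arrays and 12.90, 12.90, 12.86 and 12.89 on the globin-labelled arrays. The arrays of each group lay close together, and the difference was 0.66 ± 0.04, or 1.59-fold (limma adjusted p = 1.80e-06). Its next 2 probe sets by mean rose by 0.70 ± 0.04 and 0.71 ± 0.06. Acss2, which makes acetyl-CoA from acetate, rose by 0.41 ± 0.05 (limma adjusted p = 1.45e-04).

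The enzymes that build the chain itself did not pass. Acaca, the acetyl-CoA carboxylase, differed by -0.06 ± 0.07 (95% confidence interval -0.23 to 0.10). Fasn, the fatty acid synthase, differed by -0.07 ± 0.05 (95% confidence interval -0.19 to 0.04), so that a rise of the size seen for Acly lay outside its interval. In both genes the groups overlapped, and each had a single probe set.

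All 6 elongases and desaturases among the listed genes were called higher, where 20.6% of all genes were. Elovl5 was called only narrowly on the probe set used for it. Elongases and desaturases outside the listed genes went both ways, with Fads3 higher and Elovl1 lower, as given below. Elovl6, which extends saturated and monounsaturated chains, read 9.60, 9.67 and 9.64 on the empty vector arrays and 10.37, 10.45, 10.44 and 10.43 on the globin-labelled arrays. It rose by 0.78 ± 0.04, or 1.72-fold (limma adjusted p = 1.11e-06), and its other probe set rose by 0.72 ± 0.07. Elovl5, which extends polyunsaturated chains, read 11.97, 11.90 and 11.96 against 12.02, 12.04, 12.08 and 12.17. The groups were separate by a narrow margin, and the rise of 0.13 ± 0.05 was called with an adjusted p of 0.0497 in limma. It did not pass in 10 of 16 alternatives, among them those without empty vector array 1, 2 or 3 or without globin-labelled array 2, 3 or 4 (adjusted p = 0.0622 to 0.152). The other probe set of Elovl5 rose by 0.15 ± 0.04 and was called (limma adjusted p = 0.0151).

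The stearoyl-CoA desaturases, which place the first double bond, rose by different amounts. Scd1 read 10.39, 10.42 and 10.42 on the empty vector arrays and 10.84, 10.87, 10.91 and 10.83 on the globin-labelled arrays, a rise of 0.45 ± 0.04 (limma adjusted p = 2.64e-05). Scd2, the main form of brain, read 13.79, 13.78 and 13.74 against 13.98, 14.01, 14.01 and 13.98, a rise of 0.23 ± 0.04 (limma adjusted p = 0.00102). Neither gene's groups overlapped. The difference between the rises was not tested. The other 2 probe sets of Scd2 gave 0.25 ± 0.06, which was called, and 0.07 ± 0.07, which was not.

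The desaturases of polyunsaturated fatty acids, Fads1 and Fads2, both rose. Fads1 read 11.42, 11.55 and 11.59 on the empty vector arrays and 11.98, 11.90, 11.87 and 11.83 on the globin-labelled arrays, a rise of 0.37 ± 0.05 (limma adjusted p = 5.58e-04). Fads2 read 9.94, 9.98 and 10.04 against 10.44, 10.49, 10.37 and 10.32, a rise of 0.42 ± 0.05 (limma adjusted p = 1.89e-04), with 0.44 ± 0.04 on its other probe set. The 4 globin-labelled arrays were above the 3 empty vector arrays on each of these probe sets.

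Fads1 and Fads2 lie side by side on chromosome 19, as do Scd1 and Scd2 in another stretch of it, and some neighbours of both pairs were called higher too. For each gene, the median difference of the 10 nearest measured genes on either side was taken, with the order of genes from RefSeq's GRCm38.p6 and the 34 listed genes left out. Around Fads1 and Fads2, 15 of 20 neighbours were called higher and 0 lower (20.6% and 20.1% over all genes), with a median of 0.28, which leaves Fads1 0.10 and Fads2 0.14 above it. Around Scd1 and Scd2, 9 of 20 were called higher and 0 lower, with a median of 0.15. Over 11935 other genes with 20 such neighbours the medians had percentiles 5 and 95 of -0.13 and 0.15. Of 30 members with 20 neighbours, 9 lay outside these percentiles, which were Fads1, Fads2, Scd1, Scd2, Elovl6, Mvk, Stard4, Insig2 and Acss2. Around Elovl6 10 of 20 neighbours were higher and 1 lower (median 0.15), in the direction of the gene. Tm7sf2 lay within the percentiles, with 8 of 20 neighbours higher and 3 lower (median 0.13). Around Insig2 9 of 20 neighbours were lower and 2 higher (median -0.14), in the direction of the gene. Around Acss2 10 of 20 were lower (median -0.13), against its direction. The neighbours' medians lay between -0.02 and 0.02 for 10 genes, of which Acly, Msmo1, Fdps, Fdft1, Idi1 and Srebf1 rose by 0.31 to 0.66, Elovl5 rose by 0.13, Sc5d fell by 0.28, Scap fell by 0.21 and Mvd did not pass (0.13). The part of a regional shift in the results was not tested.

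**Figure D3:**
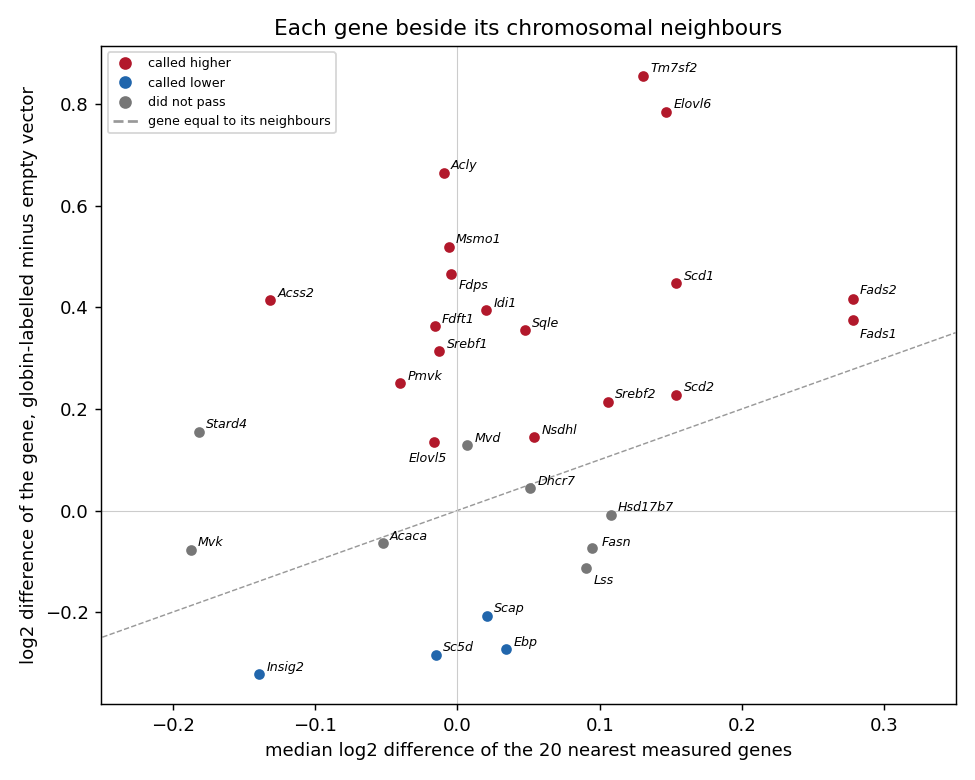
Log2 difference of each gene (vertical axis) against the median log2 difference of its 20 nearest measured genes (horizontal axis), coloured by the call. The dashed line marks a gene equal to its neighbours. Fads1 and Fads2 lie farthest right at 0.28 and close above the line, whereas Acly, Msmo1 and Fdps lie far above neighbours near 0.

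Of 13 genes that take up, store and export sterol, 7 fell (53.8%, where 20.1% of all genes were called lower) and 3 rose (23.1%, near the 20.6% of all genes called higher), with a median of -0.23. Npc1, which lets cholesterol out of the lysosome, fell by 0.63 ± 0.05 and Abca1, the cholesterol efflux pump, fell by 0.63 ± 0.05 (limma adjusted p = 1.22e-05 and 1.76e-05). Scarb1, a lipoprotein receptor, rose by 0.44 ± 0.04, and Mylip, a ubiquitin ligase that removes lipoprotein receptors, rose by 0.63 ± 0.06. Named after their values were seen, the next genes of the list by p were Abcg1, an efflux pump, which fell by 0.38 ± 0.04, Osbp, a sterol-binding protein gene, which rose by 0.30 ± 0.04, Npc2, the partner of Npc1, which fell by 0.49 ± 0.07, and Lipa, the lysosomal acid lipase, which fell by 0.31 ± 0.04. Of 4 genes of SREBP processing and turnover, 1 rose and 0 fell, too few to set apart from the 20.6% and 20.1% of all genes. It was Mbtps1, the protease that makes the initial cut in SREBP, by 0.13 ± 0.04 (limma adjusted p = 0.0201). At an unadjusted p under 0.05 in limma 0 of these 4 were lower.

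Shares of called genes in the isoprenoid branches and among further fatty acid enzymes were closer to those of all genes (20.6% higher, 20.1% lower). The isoprenoid list, with 6 genes, is too short to set apart from them. Fatty acid oxidation (50% higher, 20% lower) and glycerolipid synthesis (22.2% higher, 33.3% lower) are described under the other observations. Of 6 genes of the isoprenoid side branches 1 rose (16.7%) and 1 fell (16.7%). Rabggtb, a subunit of the transferase that attaches geranylgeranyl groups to Rab proteins, rose by 0.85 ± 0.04 and Fnta, the shared subunit of the other prenyl transferases, fell by 0.27 ± 0.04. Of 19 further genes of fatty acid elongation, desaturation and supply, 6 rose (31.6%) and 4 fell (21.1%), with a median of 0.04. Tecr, the reductase that ends each round of elongation, rose by 0.69 ± 0.06, and Hacd1, a dehydratase of the same cycle, rose by 0.43 ± 0.04. Fads3, which lies beside Fads1 and Fads2, rose by 0.65 ± 0.05, while Elovl1, an elongase of very long chains, fell by 0.46 ± 0.04.

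**Figure D4:**
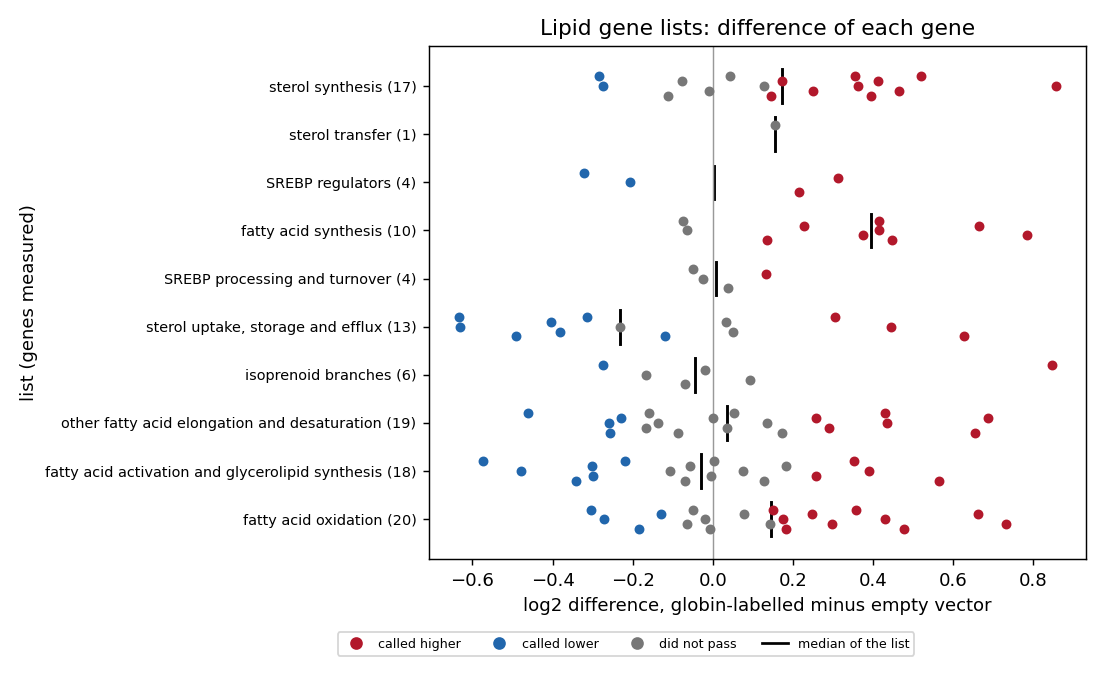
Log2 difference of each gene (horizontal axis) in the lipid gene lists (vertical axis, with the number of genes measured), coloured by the call, and the median of each list as a black bar. The median of fatty acid synthesis lies at 0.39 and that of sterol uptake, storage and efflux at -0.23.

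The rises were seen on every array of the globin-labelled group. The mean of the 17 sterol genes, relative to each gene's mean over the 7 arrays, was between -0.12 and -0.10 on the empty vector arrays and 0.08, 0.11, 0.11 and 0.04 on the globin-labelled arrays, lowest on the fourth. The mean of the 10 fatty acid genes was between -0.24 and -0.16 against 0.15, 0.17, 0.13 and 0.12. That of the 4 regulators stayed between -0.03 and 0.02 on all 7 arrays, since 2 rose and 2 fell. Bacterial hybridisation controls were lowest on empty vector array 1 (9.40) and globin-labelled array 4 (9.24), against 9.51 to 9.73 elsewhere. Without this pair of arrays 10 sterol genes rose and 2 fell, 7 fatty acid genes rose and 0 fell, and 2 regulators rose and 2 fell.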

How the data were processed

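Per the labels' protocols, biotin-labelled copies of total RNA were hybridised, 1 sample to an array. The deposited values are log2 expression after RMA, as the submitters' processing notes name it; software and version: not given in the sources used here. They were used as deposited. Precision is limited by how few arrays there are. Of 22690 probe sets, 64 array controls were left out. The platform annotation gave 1 symbol for 20380 of the rest, several for 691 (not used to name genes) and none for 1555.

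The comparison was fitted across all 22626 probe sets with limma 3.58.1 in R 4.3.3 (lmFit and eBayes with only the group in the model, two-sided), with 95% confidence intervals. The fit was checked on simulated data with known changes. The members and lists were chosen with earlier results of these data known, so their counts are descriptions and no list was tested. Named genes were every member and up to 4 called genes of each further pathway list by smallest p; markers, and 4 genes marked so in the text, were named outside this rule. Alternatives were other array scalings, variance models, array weights, a filter on dim probe sets, other choices of probe set, a replicate block and leaving out arrays. Scanner files were not used here.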

Additional observations from a re-analysis of the deposited data

Results flagged for a closer look

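Among the 32 genes, the 4 globin-labelled arrays of Dhcr7 held 1 value far from the others: globin-labelled array 4 read 8.95, where the other arrays of the group read 9.14, 9.17 and 9.17. Chance alone sets apart an array in about 1 of 20 groups of this size, so 1 of 32 is below that rate. Without that array Dhcr7 differed by 0.10 and still did not pass.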

How the results depend on the processing

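Of the 24 called genes, 20 kept their direction and call under all 16 alternatives, and the exceptions were Nsdhl, Elovl5 and Cyp51, as given above, and Scap. Mvd and Stard4 passed under 6 and 5 of them. The median of the sterol genes was 0.20 after quantile normalization, 0.14 with a gene's probe sets averaged, 0.25 with the probe set of smallest p, 0.16 to 0.19 without single arrays, and 0.20 without the pair of arrays with low hybridisation controls, an alternative chosen after seeing the data. Lss turned to 0.0821 with probe sets averaged and to 0.34 with the smallest p. Hsd17b7, which never passed, turned to 4.83e-04 with centred medians, 0.0157 after quantile normalization, 0.0172 with array weights, 0.0793 with probe sets averaged, 0.17 with the smallest p and 0.0854 without the pair of arrays, and ranged from -0.0585 to 0.0457 without single arrays. Dhcr7 ranged from -0.00737 to 0.0976 without single arrays, below 0 only without empty vector array 1, and Acaca from -0.13 to 5.79e-05, above 0 only without empty vector array 3. The causes were not tested. Same-numbered arrays did not deviate together (correlations of -0.36, -0.30 and -0.14), so the numbers give no pairing. With the replicate block, which also leaves out globin-labelled array 4, 6337 probe sets were called, Hsd17b7 turned to 0.0457 and the SREBP regulators called lower fell from 2 to 1. In that fit Nsdhl, Elovl5 and Scap (limma adjusted p = 0.148, 0.239 and 0.0621) and no other called member did not pass. Without array 4 alone Nsdhl and Elovl5 did not pass either (0.0539 and 0.101), whereas Scap did (0.0121).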

Other observations

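Genes that burn or store fatty acids were measured as well. Of 20 genes of fatty acid oxidation 10 rose (50%, where 20.6% of all genes were called higher) and 4 fell (20%, near the 20.1% of all genes called lower), with a median of 0.15. Acadm, an acyl-CoA dehydrogenase, rose by 0.73 ± 0.04 and Cpt1a, which admits fatty acids to mitochondria, rose by 0.66 ± 0.04 (limma adjusted p = 3.41e-06 and 3.68e-06). Eci2 and Hadh, enzymes of the same cycle, rose by 0.48 ± 0.04 and 0.43 ± 0.05. Of 18 genes of fatty acid activation and glycerolipid synthesis 4 rose (22.2%) and 6 fell (33.3%), with a median of -0.03, the share of rises being near that of all genes. Gpam, which starts glycerolipid synthesis, rose by 0.56 ± 0.05. Pcyt1a and Chka, enzymes of phosphatidylcholine synthesis, fell by 0.57 ± 0.05 and fell by 0.34 ± 0.04, and Acsl4, which activates polyunsaturated fatty acids, fell by 0.48 ± 0.06.

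Exactly equal values on more than 1 array occurred for 36.3% of the probe sets, and for 4 of the 32 genes.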
